A study of Homo sapiens with 12 samples.

Results

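The genes examined here load and display peptides on major histocompatibility complex (MHC) class I molecules. They were taken by gene symbol alone: HLA-B, HLA-C, HLA-E, HLA-F, B2M, TAP1, TAP2, TAPBP and NLRC5, which are 9 of the 46639 symbols measured. All transcript entries of a symbol were summed. Of the 9 genes, 5 reached a normalised count of at least 10 in at least 3 libraries and were tested (HLA-B, HLA-C, HLA-E, B2M and NLRC5), whereas HLA-F, TAP1, TAP2 and TAPBP stayed below that level and are described by their reads only.

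RNA was sequenced from MOLM-13, an established acute myeloid leukemia (AML) cell line, in 12 libraries. The sample labels name GM-CSF in the medium, whereas the study's methods do not mention it. The 4 groups of 3 libraries were untreated, decitabine (DAC, 100 nM, which blocks DNA methylation), all-trans retinoic acid (ATRA, 1 µM, which activates retinoic acid receptors) and DAC+ATRA. The labels give 72 h for the treated groups and 96 h for untreated cells, although the design text names 72 h for the harvest, and the study's methods add ATRA only with the last of the daily DAC doses. If the labels hold, drug and time cannot be told apart in the comparisons against untreated cells. The design text calls the replicates technical triplicates, and p-values here therefore measure only the spread within this experiment. The control libraries are labelled untreated, although the study's methods mention vehicle-treated controls. If these cells received no vehicle, ATRA and the DMSO it was dissolved in cannot be told apart in comparisons against them.

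MHC class I molecules consist of a polymorphic heavy chain and the invariant light chain beta-2-microglobulin, and present peptides from inside the cell to CD8 T cells. Peptides made by the proteasome are pumped into the endoplasmic reticulum by the transporter TAP1/TAP2, loaded with the help of tapasin (encoded by TAPBP) and trimmed by aminopeptidases. The class I genes share promoter elements that respond to NF-kB, interferon regulatory factors and the transactivator NLRC5, and their loss is a known route by which leukemia cells escape T cells.

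Recovered reads ranged from 4.67 to 11.9 M per library (M, mega), and both groups with DAC were shallower (4.67 to 7.16 M) than both groups without it (8.36 to 11.9 M). Replicate libraries were compared by the chi-square per degree of freedom of their reads, and untreated replicate 3, DAC replicate 3 and ATRA replicate 1 stood furthest from the others of their group, at 22.0 to 33.8 against 2.26 to 7.90 for the remaining pairs. The myeloid markers CD33, SPI1, MPO, FLT3 and CEBPA were present throughout (303 to 27376 normalised counts over all of them), PTPRC was low (5.11 to 50.1), and CD2, MS4A1, PAX5, KLRD1 and ALAS2, which define lymphoid and erythroid cells, were at 0 in all 12 libraries. The T cell receptor transcript TRAC and the NK cell gene NKG7 were detected nevertheless (7.15 to 537 and 396 to 1282). Other markers of these lists were low but not at 0 and differed in range between groups: the B cell gene CD79A ranged from 1.25 to 4.06 in untreated, 8.71 to 26.7 in DAC, 12.5 to 20.1 in ATRA and 26.6 to 39.8 in DAC+ATRA libraries, and the fibroblast gene COL1A1 from 4.87 to 10.7, 17.8 to 23.9, 64.5 to 86.3 and 39.2 to 58.2, while COL1A2 and DCN were at 0. The summed T cell list of 4 genes lay at 509 to 559 in untreated, 321 to 369 in DAC, 17.6 to 34.0 in ATRA and 28.6 to 43.4 in DAC+ATRA libraries, most of it TRAC without ATRA, whereas CD3D (19.4 to 28.0) exceeded TRAC in DAC+ATRA libraries. The part of these markers in the results was not tested. In bulk RNA, fewer cells of a type and less RNA per cell cannot be told apart.

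HLA-B was by far the best covered of the genes, and it was higher in every treated library than in every untreated one. It encodes a classical class I heavy chain and lies on chromosome 6 at 31353872 to 31367067 on the minus strand (GENCODE release 44, GRCh38). Untreated cells gave 1628, 1749 and 1727 normalised counts, which rose to 3498, 3342 and 2820 with DAC, to 4137, 4574 and 5677 with ATRA and to 6266, 6905 and 6386 with DAC+ATRA. No library of any group overlapped those of another, and the order of the means was untreated, DAC, ATRA and DAC+ATRA, as the plot of normalised counts by library shows.

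**Figure D1:**
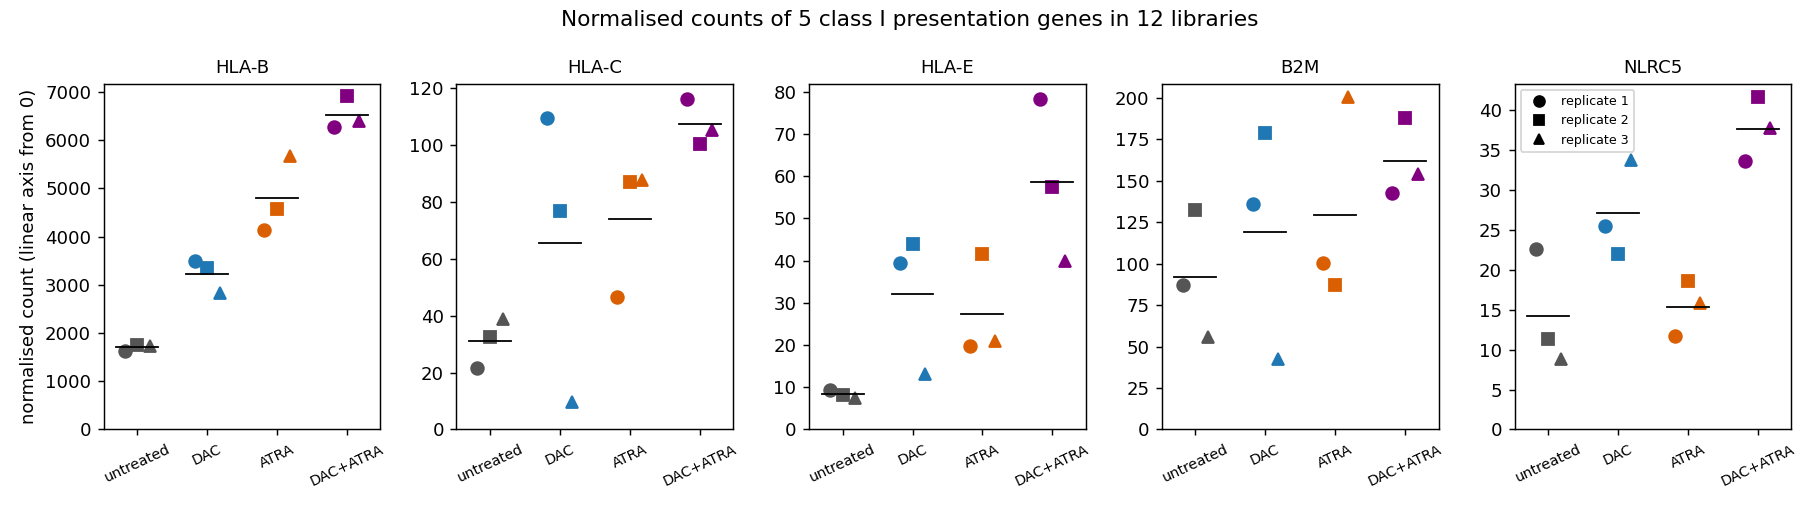
Normalised counts (linear axes that start at 0) of the 5 tested genes in the 12 libraries, by group, with a horizontal line at each group mean and a marker shape per replicate number. HLA-B rose in steps from 1628 in the lowest untreated to 6905 in the highest DAC+ATRA library, whereas DAC replicate 3 (blue triangle) lay far below the other DAC libraries for HLA-C, HLA-E and B2M.

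On the log2 scale, HLA-B rose by 0.91 ± 0.12 (SE) with DAC (limma, adjusted p = 1.80e-05). The rise was 1.48 ± 0.12 with ATRA (limma, adjusted p = 5.39e-09) and 1.94 ± 0.12 when both drugs were given (adjusted p = 1.17e-10). These calls held in all 26 alternative settings. In ratios of the group means, the level was 1.89, 2.82 and 3.83 times that of untreated cells. ATRA added 1.02 ± 0.12 to DAC (DAC+ATRA against DAC, adjusted p = 1.38e-06) and exceeded DAC by 0.57 ± 0.12 when the single drugs were compared directly (adjusted p = 6.04e-04). DAC added 0.45 ± 0.12 to ATRA (adjusted p = 0.0084), but this last step was lost in 17 of 26 alternatives, among them the omission of any untreated or DAC+ATRA library, of DAC replicate 2 or of ATRA replicate 1 or 2 (adjusted p = 0.0104 to 0.0489 in limma).

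The interaction asks whether DAC+ATRA differs from the sum of the single changes on the log2 scale. For HLA-B it was -0.46 ± 0.16 (95% interval -0.80 to -0.12, limma adjusted p = 0.156), so that a combined effect below the sum was not established over all genes. It passed the threshold when untreated replicate 3, DAC replicate 3 and ATRA replicate 1 were omitted together (-0.66, adjusted p = 0.00334), a setting chosen after the data were seen.

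The reads of HLA-B came from several transcript entries. Of 17 entries with this symbol, 15 are not in GENCODE release 44 and held 99.8% of the signal, and 4 of those carried 44.5%, 21.6%, 20.5% and 12.9%. Whether these entries stand for copies on alternative MHC haplotypes of the assembly was not determined. The leading entry, ENST00000435618.6, gave 631, 754 and 765 normalised counts in untreated cells, 1692, 1683 and 1041 with DAC, 1628, 1863 and 2622 with ATRA and 2826, 3145 and 3038 with DAC+ATRA. DAC replicate 3 was the lowest DAC library for this entry and the highest for ENST00000425848.6 (737 against 636 and 604).

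**Figure D2:**
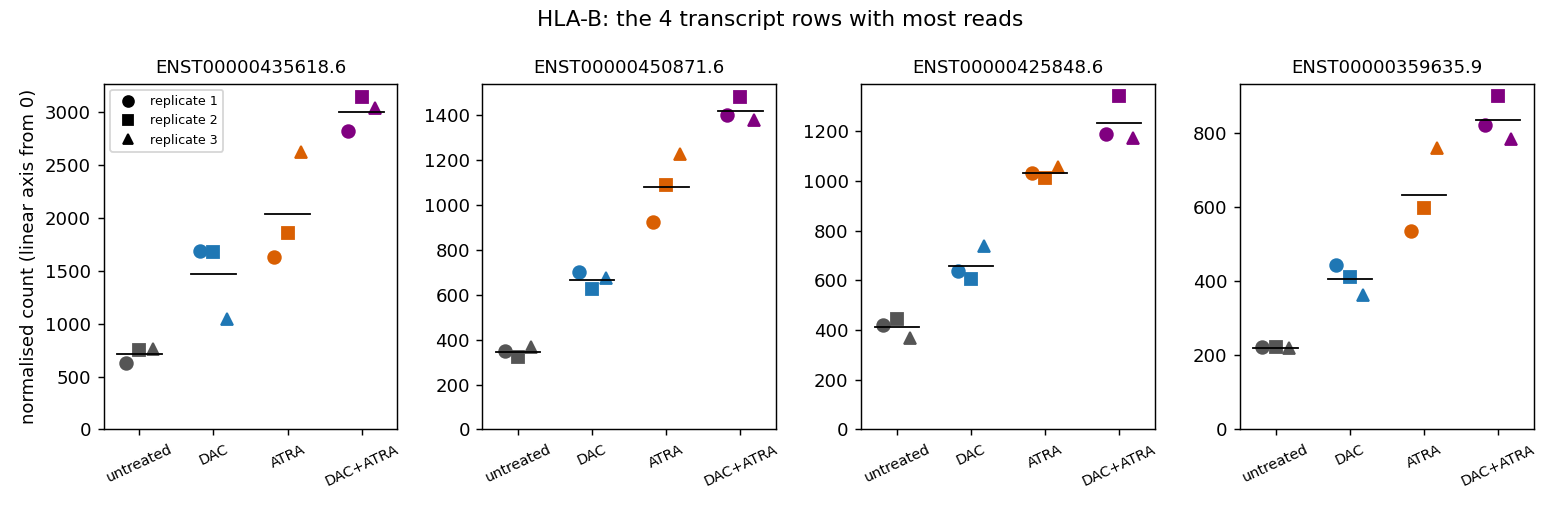
Normalised counts (linear axes that start at 0, a separate scale in each panel) of the 4 HLA-B transcript entries with most reads, in the 12 libraries by group, with a line at each group mean. In each entry the 3 DAC+ATRA libraries lay above all others and the 3 untreated libraries below all others.

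When transcript entries were tested singly (limma, 15038 entries), all 4 rose with DAC (log2 change 0.68 to 1.01, where 2.97% of entries were called higher), with ATRA (1.33 to 1.63, 9.48% called higher), with DAC+ATRA (1.59 to 2.07, 10.9% called higher) and with DAC+ATRA against DAC (0.91 to 1.09, 7.08% called higher). For DAC+ATRA against ATRA their changes were 0.25 to 0.59 with adjusted p = 0.0240 to 0.156 in limma, none under 0.01, whereas 4.42% of all entries were called higher. The entry ENST00000412585.7, the HLA-B transcript of release 44 with reads, held only 0.23% of the signal.

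HLA-C, the other classical heavy chain of the set (chromosome 6, 31268749 to 31272130, minus strand), had far fewer recovered reads, 823 over the 12 libraries against 48892 for HLA-B. Because reads that fit several listed transcripts appear not to have been counted, levels are lower limits and cannot be ranked between genes. Untreated libraries held 21.8, 32.5 and 38.9 normalised counts, DAC libraries 109, 76.8 and 9.80, ATRA libraries 46.6, 87.1 and 87.8, and DAC+ATRA libraries 116, 100.2 and 105. ATRA and DAC+ATRA libraries all lay above untreated ones, and DAC replicate 3, with 9 reads, was the lowest of the 12 libraries while the remaining DAC libraries were above every untreated one.

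The change of HLA-C with DAC+ATRA was 1.79 ± 0.55 (limma, adjusted p = 0.0139), that with ATRA 1.20 ± 0.55 (adjusted p = 0.0974) and that with DAC 0.54 ± 0.55 (adjusted p = 0.573). None of these passed 0.01 in that fit of the 12 libraries, although the DAC+ATRA change did with edgeR (adjusted p = 0.00259), with a pseudocount of 5 (adjusted p = 0.00812) and with only the compared groups (adjusted p = 7.45e-06), where the ATRA change did as well (adjusted p = 0.00559). Without DAC replicate 3, the limma changes were 1.57 ± 0.28 with DAC (adjusted p = 3.91e-04), 1.20 ± 0.25 with ATRA (adjusted p = 5.77e-04) and 1.79 ± 0.25 for the combination (adjusted p = 5.74e-06). Without DAC replicate 1, the DAC+ATRA change also passed the threshold (adjusted p = 0.00604) and the DAC change was -0.11.

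The 250 bases before the RefSeq start site (GRCh38.p14) are shown for HLA-B and HLA-C, which share class I promoter elements, and for B2M, their light chain encoded elsewhere in the genome. Capitals mark 9-base matches, on either strand, to the letters GAAANNGAA of the interferon-stimulated response element (ISRE), to the same letters in the other order (GAANNGAAA, added after the sequences were seen) or to the NF-kB letters GGGATTCCC of the class I enhancer A. The windows are chr6:31357180-31357429 (minus strand), chr6:31272093-31272342 (minus strand) and chr15:44711267-44711516 (plus strand). The HLA-B window and parts of both others lie inside the gene spans of GENCODE given here. HLA-E and NLRC5 are not shown, since 7 of the 9 genes matched the promoter table.
HLA-B: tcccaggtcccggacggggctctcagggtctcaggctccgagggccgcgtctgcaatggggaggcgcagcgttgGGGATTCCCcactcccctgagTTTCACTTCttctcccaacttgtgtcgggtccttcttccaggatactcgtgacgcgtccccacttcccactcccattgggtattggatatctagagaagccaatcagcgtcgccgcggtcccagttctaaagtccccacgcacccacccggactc
HLA-C: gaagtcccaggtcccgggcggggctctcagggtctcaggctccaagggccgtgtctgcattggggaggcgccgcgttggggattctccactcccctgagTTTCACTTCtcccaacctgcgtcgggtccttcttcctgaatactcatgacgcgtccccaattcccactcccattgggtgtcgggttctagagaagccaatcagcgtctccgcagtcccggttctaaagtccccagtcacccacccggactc
B2M: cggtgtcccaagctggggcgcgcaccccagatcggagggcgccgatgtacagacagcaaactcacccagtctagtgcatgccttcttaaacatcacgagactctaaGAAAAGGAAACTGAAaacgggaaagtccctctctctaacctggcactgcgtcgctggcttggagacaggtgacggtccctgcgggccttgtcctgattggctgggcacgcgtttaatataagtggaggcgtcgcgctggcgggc

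The HLA-B and HLA-C windows were identical at 226 of 254 aligned positions (89.0%). Both held TTTCACTTC, a match to GAANNGAAA that began 155 bases before the start in HLA-B and 151 in HLA-C, and 6.55% of the 35116 promoter windows in the table held such letters. GGGATTCCC, found in 0.362% of windows, began 176 bases before the start in HLA-B and had no match in the HLA-C window. B2M held a pair of overlapping GAAANNGAA matches, starting 144 and 138 bases upstream (6.88% of windows hold at least 1).

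All 3 windows held TGACG, part of the cAMP response element, found in 21.2% of windows, and CCAAT, the Y box core found in 32.0%. TTCNNNGAA, the gamma-activated site (6.57% of windows), and AGGTCA, the core letters of retinoic acid receptor sites (12.1% of windows), had no match in the 3 windows. CG dinucleotides numbered 17, 15 and 18 in HLA-B, HLA-C and B2M. These are letter matches in a reference sequence, and no binding or methylation was measured in the files used here.

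HLA-E encodes a non-classical heavy chain that shows leader peptides of other class I molecules to the NKG2A receptor of NK cells (chromosome 6, 30489509 to 30494194, plus strand). In untreated cells it gave 9.33, 8.12 and 7.53 normalised counts, from 10 to 12 reads per library. DAC gave 39.4, 43.9 and 13.1, ATRA 19.7, 41.7 and 20.9, and DAC+ATRA 78.4, 57.4 and 39.8. All 9 treated libraries lay above all untreated ones, while the treated groups overlapped each other.

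HLA-E rose by 2.63 ± 0.41 with DAC+ATRA (limma, adjusted p = 4.43e-05), a call that held in all 25 alternatives that kept the gene. The rises with DAC (1.66 ± 0.41, adjusted p = 0.00949) and with ATRA (1.53 ± 0.41, adjusted p = 0.0064) lay close to the threshold. The DAC call was lost in 17 of 25 alternatives, including the omission of any library other than DAC replicate 3 and ATRA replicate 2 (adjusted p = 0.0104 to 0.0562), and the ATRA call in 7, including the omission of any untreated library or of ATRA replicate 2 or 3 (adjusted p = 0.0113 to 0.0515). None of the untreated libraries reached 10, so HLA-E passed the filter only through its treated libraries, and its presence among the tested genes is no evidence of a rise.

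HLA-F, another non-classical heavy chain (chromosome 6, 29722775 to 29738528, plus strand), had 2 reads in all 12 libraries together, 1 in DAC replicate 3 and 1 in ATRA replicate 3. No difference was detectable at this depth.

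B2M, which encodes the light chain needed by all these heavy chains (chromosome 15, 44711358 to 44718851, plus strand), did not pass the threshold in any comparison of the main fit. Untreated libraries held 87.1, 132 and 55.8 normalised counts, DAC libraries 136, 179 and 42.5, ATRA libraries 100.3, 87.1 and 201, and DAC+ATRA libraries 143, 188 and 154. Only the DAC+ATRA libraries all lay above the untreated ones, and the spread within the other groups was wide. The change with DAC+ATRA was 0.89 ± 0.41 (95% interval 0.03 to 1.74, limma adjusted p = 0.0925), which does not show that the level was the same. This change passed with only the compared groups (limma, adjusted p = 0.00546) and was not called in 25 of 26 alternatives.

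The wide spread of B2M came mainly from the entry ENST00000648006.2, which held 76.7% of the signal and ranged from 17.4 (DAC replicate 3) to 173 (ATRA replicate 3). A smaller entry, ENST00000617605.4 (19.5% of the signal), was steadier, at 17.9, 16.2 and 14.4 in untreated cells, 12.7, 20.4 and 22.9 with DAC, 23.3, 17.9 and 22.6 with ATRA, and 49.0, 36.0 and 40.8 with DAC+ATRA. Its DAC+ATRA libraries lay above all 9 others. Against untreated cells it rose by 1.32 ± 0.31 (limma over entries, adjusted p = 0.00266), where 10.9% of entries were called higher. This smaller entry is not in release 44. The leading entry, which is in release 44, changed by 0.80 ± 0.55 and was not called (limma over entries, adjusted p = 0.298).

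The peptide transporter and its loading factor could not be tested. TAP1 (chromosome 6, 32845209 to 32853816, minus strand) had 9 reads in all and at most 2 in a library. TAP2 (32821833 to 32838739, minus strand) had 3 reads in all, 1 each in DAC replicate 1 and DAC+ATRA replicates 2 and 3. TAPBP (33299694 to 33314284, minus strand) had 2, 0 and 2 reads in untreated libraries, 7, 1 and 1 with DAC, 6, 3 and 2 with ATRA, and 4, 6 and 7 with DAC+ATRA. In normalised counts, the TAPBP values of DAC+ATRA, 5.60, 6.75 and 7.15, lay above those of untreated cells, 1.56, 0 and 1.25, and in a fit with no filter on low values the difference did not pass the threshold (limma, adjusted p = 0.0148).

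These low values were shared by the region in which the genes lie. Of 140 protein-coding genes between HLA-F and TAPBP on chromosome 6, 16 (11.4%) passed the filter, against 10392 of 18960 other protein-coding genes (54.8%). In 53 of the 62 genes of the region with reads (85.5%), most of the signal lay in entries that are not in release 44, against 1.82% elsewhere, and the median number of entries per gene was 14 against 2. Low counts of TAP1, TAP2, TAPBP and HLA-F in these values can therefore not be told apart from reads lost in counting.

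NLRC5, the transactivator of class I genes, is encoded outside the MHC (chromosome 16, 56989485 to 57083531, plus strand), and all its reads came from 1 entry of release 44. Untreated libraries held 22.6, 11.4 and 8.78 normalised counts, DAC libraries 25.4, 22.0 and 33.7, ATRA libraries 11.6, 18.6 and 15.9, and DAC+ATRA libraries 33.6, 41.6 and 37.8. The DAC+ATRA libraries lay above all untreated and all ATRA libraries, and ATRA libraries fell within the range of untreated ones.

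NLRC5 rose by 1.44 ± 0.35 with DAC+ATRA (limma, adjusted p = 0.00253), while its changes were 0.96 ± 0.35 with DAC (adjusted p = 0.0682) and 0.19 ± 0.35 with ATRA (95% interval -0.54 to 0.91, adjusted p = 0.721). The DAC+ATRA call was lost in 5 of 25 alternatives, including the omission of untreated replicate 2 (adjusted p = 0.0139) or 3 (0.0185) or of DAC+ATRA replicate 2 (0.0138) or 3 (0.0105). Against ATRA alone, DAC+ATRA was higher by 1.26 ± 0.35, just outside the threshold (adjusted p = 0.0138), and inside it without untreated replicate 1 (adjusted p = 0.00818) or DAC replicate 3 (adjusted p = 0.00927).

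Counted together, 2 of the 5 tested genes were called higher with DAC (HLA-B and HLA-E), where 4.29% of all 10641 genes tested were called higher. With ATRA, the same 2 genes were called higher, where 12.1% of all genes were. With DAC+ATRA, 3 genes were called higher (HLA-B, HLA-E and NLRC5), where 14.5% of all genes were. HLA-B was the gene called higher with DAC+ATRA against DAC (9.03% of all genes), with DAC+ATRA against ATRA (6.47%) and with ATRA against DAC (13.2%). The members entered the fit after a filter that HLA-E passed only where it was high, so these counts are a description.

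Without DAC replicate 3, 3 of the 5 genes were called higher with DAC (6.6% of all genes), 3 with ATRA (14.1%) and 4 with DAC+ATRA (17.2%). HLA-C was the gene added in each. When each library was omitted in turn, 1 to 3 were called with DAC, 1 to 3 with ATRA and 2 to 4 with DAC+ATRA. In the fit of all 12 libraries, the median log2 change of the 5 genes was 0.91 with DAC, 1.20 with ATRA and 1.79 with DAC+ATRA. The medians of all tested genes lay between -0.04 and -0.0039. The 5 genes include HLA-E, which passed the filter only through its treated libraries, so their medians are a description only. All these comparisons share the untreated libraries.

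For the interaction, 0 of the 5 genes passed the threshold in limma, and 1 (HLA-B) had an unadjusted p under 0.05, where 1.57% of all genes were called in either direction. DESeq2 and edgeR on the recovered reads also called 0, each with 1 gene at an unadjusted p under 0.05.

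**Figure D3:**
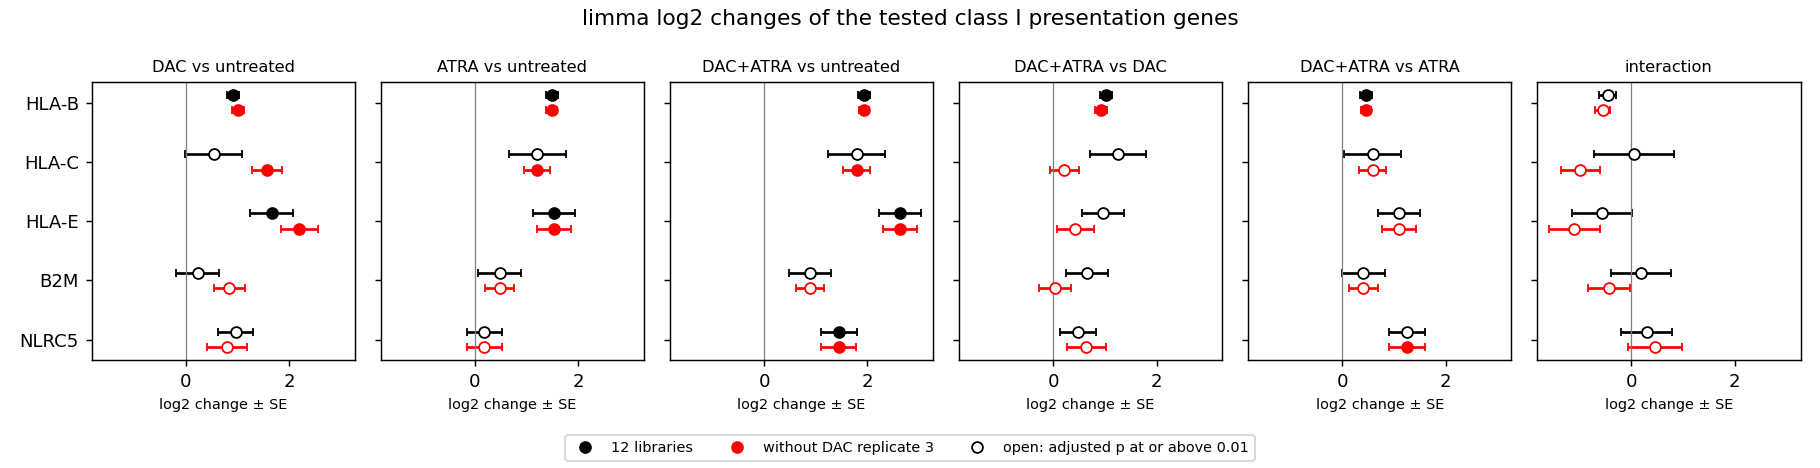
Log2 changes with SE (limma) of the 5 tested genes in 5 comparisons and the interaction, with all 12 libraries (black) and without DAC replicate 3 (red); filled points have an adjusted p under 0.01 and open points do not. HLA-B was called in the first 5 panels with and without that library, whereas, of these fits, HLA-C against untreated was called only in the one without it (1.57 instead of 0.54 with DAC).

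Correlations between the genes over the 12 libraries were uneven. Pearson's r on log2 values is a description over libraries that share groups and depth. It was 0.85 between HLA-B and HLA-E, 0.79 between HLA-C and HLA-E and 0.77 between HLA-C and B2M. It was 0.22 between HLA-C and NLRC5 and 0.24 between B2M and NLRC5. DAC replicate 3 enters these values, as the lowest library for HLA-C (9.80) and B2M (42.5) and the highest DAC library for NLRC5 (33.7). Whether the genes differ in pattern apart from that library was not tested. Among all other tested genes, C9orf16 was most like the mean profile of the 5 genes (r = 0.97 over 12 libraries), followed by MIGA2, CLCN7, TPGS1 and SLC25A11 (r = 0.94 to 0.96). CAMK2G (r = 0.95), ILKAP and S100B came closest to NLRC5, and NDUFB2 (r = 0.95), ELOVL1 and CORO1A to B2M.

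Other genes of class I presentation were taken from lists of 63 genes, of which 57 were tested. With DAC, 3 rose (4.29% of all genes) and 2 fell (3.67% of all genes). With ATRA, 18 rose and 5 fell (12.1% of all genes were called higher and 14% lower), and with DAC+ATRA 18 rose and 4 fell (14.5% called higher and 14.4% lower). DAC+ATRA was above ATRA in 2 and below it in 4 (6.47% of all genes called higher and 5.45% lower). The median log2 change of the 57 genes was 0.05 with DAC, 0.20 with ATRA and 0.27 with DAC+ATRA.

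Of 9 genes for peptide loading and trimming, 2 rose and 3 fell with ATRA (12.1% and 14% of all genes) and 4 rose and 3 fell with DAC+ATRA (14.5% and 14.4%). TAPBPL, a tapasin-related peptide editor, rose most in this list, by 1.84 ± 0.14 with ATRA and 2.00 ± 0.14 with DAC+ATRA (limma, adjusted p = 3.49e-09 and 1.25e-09). The aminopeptidases differed among themselves: ERAP2 rose by 1.21 and 0.95 and ERAP1 by 0.65 with DAC+ATRA, whereas LNPEP fell by 0.43 with ATRA and by 0.79 with DAC+ATRA, and NPEPPS fell by 0.62 with DAC+ATRA. Among the chaperones, calreticulin (CALR) rose by 0.95 with DAC and fell by 1.09 with ATRA, calnexin (CANX) fell by 0.59 with ATRA and by 0.37 with DAC+ATRA, and PDIA3, the disulfide isomerase of the loading complex, rose by 0.80 with DAC and 0.56 with DAC+ATRA.

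Of 4 tested immunoproteasome and activator genes, 2 rose with ATRA (12.1% of all genes) and 2 with DAC+ATRA (14.5%). The catalytic subunit PSMB10 rose by 1.38 with ATRA and 1.15 with DAC+ATRA, and the activator subunit PSME2 by 1.29 and 1.30. PSMB8 and PSMB9 both lie in the MHC region, where low counts cannot be told apart from reads lost in counting. PSMB8 had group means of 21.6 to 37.4 normalised counts. Its changes were 0.14 with ATRA and 0.55 with DAC+ATRA (limma, adjusted p = 0.790 and 0.227), which does not show that the level was the same. PSMB9 was below the filter. The list of constitutive catalytic subunits, the assembly factor POMP and a further activator subunit, PSME3, had 5 tested genes. Its median log2 changes were -0.07 with DAC, 0.11 with ATRA and 0.14 with DAC+ATRA.

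Of the 13 transcription factors that act on class I promoters, 6 rose and 1 fell with ATRA (12.1% and 14% of all genes) and 4 rose with DAC+ATRA (14.5%). IRF1, an interferon-responsive activator, rose by 3.16 with ATRA and 2.65 with DAC+ATRA. CIITA, the class II transactivator related to NLRC5, rose by 3.62 and 3.35, RFX5, a subunit of the factor that binds the X box, by 1.04 and 1.44, and NFKB1 by 1.37 and 1.06. The other subunits of the X box factor did not rise with RFX5. RFXAP was the gene that fell with ATRA (-0.76, limma adjusted p = 0.00919), and its change with DAC+ATRA was -0.0061 (adjusted p = 0.986). RFXANK had changes of -0.51 and 0.40 and was not called (limma, adjusted p = 0.355 and 0.463). In the interferon signalling list of 12 tested genes, 5 rose with ATRA (12.1% of all genes) and 3 with DAC+ATRA (14.5%). Among them, IFNAR2 rose by 2.03 and 2.23 and JAK2 by 1.42 and 0.90.

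Of 3 tested subunits of PRC2, a complex that can silence class I genes, 1 fell with ATRA (14% of all genes) and 1 with DAC+ATRA (14.4%). This was SUZ12, which fell by 0.72 with ATRA and by 0.77 with DAC+ATRA. EZH2 had changes of -0.54 and 0.07 (limma, adjusted p = 0.173 and 0.876) and EED of 0.10 and 0.36 (adjusted p = 0.857 and 0.459). Of 6 genes of class I surface turnover, 1 rose with ATRA (12.1% of all genes) and 2 with DAC+ATRA (14.5%). SUSD6, which takes part in the removal of class I molecules from the surface, rose by 1.31 and 0.99. SPPL3, an intramembrane protease, rose by 0.64 with DAC+ATRA.

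**Figure D4:**
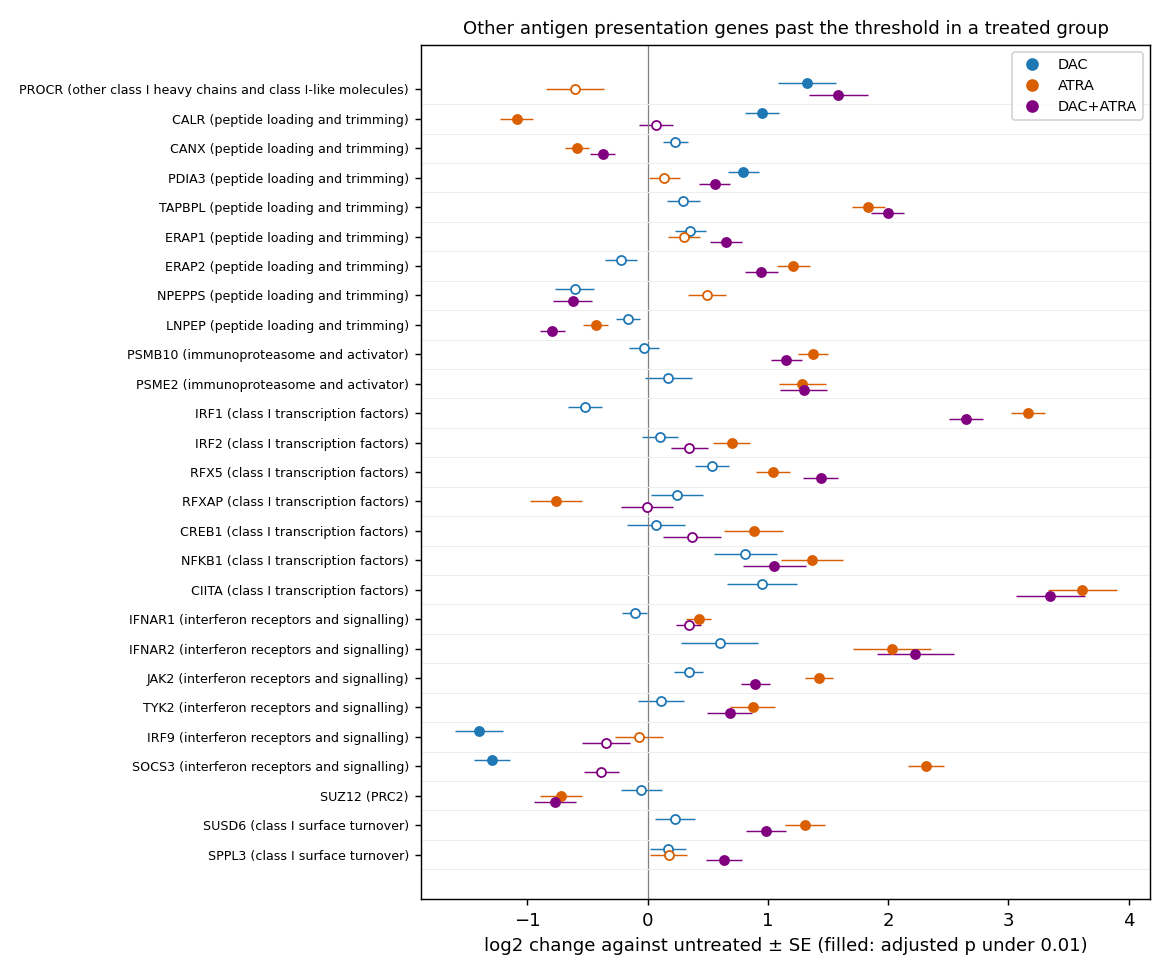
Log2 changes against untreated cells with SE (limma) of 27 of the other antigen presentation genes that passed an adjusted p of 0.01 in at least 1 treated group, with DAC in blue, ATRA in orange and DAC+ATRA in purple; filled points passed and open points did not. CD1D, with no reads in untreated cells, is among the genes not drawn. ATRA and DAC+ATRA points lie far to the right for IRF1 (3.16 and 2.65) and CIITA (3.62 and 3.35), and CALR lies on opposite sides of 0 for DAC and ATRA.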

How the data were processed

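The authors aligned strand-specific, ribosome-depleted RNA-seq reads to hg38 with STAR, counted them per Ensembl transcript with htseq-count and normalised them with DESeq2 (versions are not given in the sources used here). The deposited values are thus a normalised signal, called normalised counts here. In each library, 100% of them were whole multiples of 1 step (tolerance 0.001 reads), so that reads were recovered by division. Columns named CTRL were taken as untreated. Entries were summed per symbol, and biotypes and coordinates came from GENCODE release 44 (88.9% of 100502 entries matched).

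Protein-coding genes with at least 10 in 3 libraries (10641) were tested with limma 3.58.1 in R 4.3.3 (lmFit, eBayes with trend) on log2(normalised count + 1), which understates changes of low genes. All 12 libraries entered 1 fit, p-values were adjusted by Benjamini-Hochberg, and genes were called at an adjusted p under 0.01, the authors' threshold. Tests were checked on simulated data. Alternatives were edgeR 4.0.16 and DESeq2 1.42.0 on recovered reads, other scalings, pseudocounts, filters and thresholds, transcript entries, a replicate block and omitted libraries. The members and lists were chosen with earlier results of these data known. Named genes were all members, called list genes, and the genes with the highest r to the mean profile (5), NLRC5 (3) and B2M (3). Some genes of the lists are counted but not reported here. CD1D is compared with a floor of 3 reads per library.

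Replicate numbers did not pair the samples: deviations of same-numbered libraries correlated at -0.263 to 0.114, with 2 of 18 pairs over 0.1.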

Additional observations from a re-analysis of the deposited data

How the results depend on the processing

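The limits of these results are depth and counting. Members of the MHC region are read mostly through transcript entries outside release 44, HLA-E and NLRC5 rest on at most 56 and 37 reads in a library, and the replicates are called technical. The calls of HLA-B in each treated group against untreated cells and in DAC+ATRA against DAC, and of HLA-E in DAC+ATRA against untreated cells, held in every setting that kept the gene. HLA-E passed the main filter only through its treated libraries, and the filter of 50 removed it. No scaling moved the median of all genes by over 0.1 (log2). Among single-gene values, 795 kept direction and call, 47 lost and 20 gained a call, and 29 changed sign. The fit of only the compared groups was not run for the interaction, which needs all groups.

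Called members with DAC numbered 1 instead of 2 (HLA-B alone) under TMM scaling, pseudocounts of 0.1 and 5, no filter, a filter of 50, all symbols, only the compared groups or the most abundant entry, and 1 to 3 when 1 library was omitted. With ATRA the number was 1 without a filter, with a filter of 50 or with the most abundant entry, and 1 to 3 over omitted libraries. With DAC+ATRA it was 1 with a filter of 50, 5 with only the compared groups and 2 to 4 over omitted libraries, and HLA-C was added with edgeR or a pseudocount of 5. For DAC+ATRA against ATRA it was 2 with DESeq2, a pseudocount of 5 or a threshold of 0.05, 0 with edgeR, TMM scaling, a pseudocount of 0.1, no filter, all symbols or the most abundant entry, and 0 to 2 over omitted libraries. For ATRA against DAC it was 0 with the most abundant entry. For the interaction it was 2 without untreated replicate 3, DAC replicate 3 and ATRA replicate 1, a setting added after the data were seen. The causes were not tested, beyond fewer genes tested with a filter of 50.

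With a replicate block, the number of members called for DAC+ATRA against ATRA was 0 instead of 1, and no other count changed; the samples share only a number.

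Changes of sign occurred in values that were not called over the 12 libraries. The HLA-C interaction, 0.05, was -0.55 with DESeq2, -0.52 with edgeR, -0.98 to 0.69 over omitted libraries and -1.46 without the 3 libraries named above. The B2M interaction was -0.069 with DESeq2, -0.0573 with edgeR, -0.44 to 0.59 over omitted libraries and -0.26 without the 3. The HLA-E interaction was 0.0822 for its most abundant entry, and that of NLRC5 was -0.0712 to 0.56 over omitted libraries. Over omitted libraries, the DAC change was -0.11 to 1.57 for HLA-C and -0.18 to 0.85 for B2M (1.75 for HLA-C without the 3), and the ATRA change of NLRC5 was -0.0826 to 0.55. For ATRA against DAC it was -0.37 to 1.31 for HLA-C, -0.67 to 0.17 for HLA-E and -0.37 to 0.66 for B2M, and without the 3 libraries -0.0682 for HLA-C and -0.24 for B2M. The causes were not tested.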

Other observations

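The class I-like genes CD1D and PROCR of the lists differed from each other. CD1D, which presents lipids, had no reads in any untreated or DAC library, a mean of 189 ± 19.3 normalised counts (SD, n = 3) with ATRA and 41.0 ± 3.30 with DAC+ATRA. Against a floor of 3 reads per library these were at least 85.3-fold and at least 18.5-fold higher than untreated cells, and the log2 change of DAC+ATRA against ATRA was -2.18 ± 0.38 (limma, adjusted p = 4.30e-04). PROCR, the endothelial protein C receptor with a class I-like fold, rose with DAC (1.33 ± 0.24, adjusted p = 8.54e-04 in limma) and with DAC+ATRA (1.59 ± 0.24), and its change with ATRA was -0.60 ± 0.24 (adjusted p = 0.0594).

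In the interferon signalling list, SOCS3, an inhibitor of cytokine signalling, had group means of 1006, 409, 5061 and 770 normalised counts in untreated, DAC, ATRA and DAC+ATRA cells, and its interaction passed the threshold (-1.41 ± 0.21, limma adjusted p = 4.80e-04). JAK2, a kinase of the interferon receptors, had means of 1250, 1603, 3363 and 2329 and an interaction of -0.87 ± 0.17 (adjusted p = 0.00451 in limma). IRF9, a subunit of the interferon-activated ISGF3 complex, fell by 1.41 with DAC (adjusted p = 6.92e-05 in limma).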
